A study of Mus musculus with 12 samples.

Results

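Sprouty and Spred proteins and the phosphatase DUSP6 are feedback inhibitors of receptor tyrosine kinase signalling, and their transcripts were followed here in mouse oocytes with and without MTR4, the RNA helicase that delivers nuclear RNA to the exosome. The 6 genes Spry1, Spry2, Spry4, Spred1, Spred2 and Dusp6 were taken by symbol from the 23235 genes of the deposited table, and all 6 were found. They were chosen by symbol with their FPKM in these 4 groups already known, in particular the far lower Spry4 value in Mtr4-null oocytes at day 21. All FPKM differences of the 6 genes below are therefore descriptions. WT and Mtr4-null oocytes were isolated at postnatal day 14 as growing oocytes and at day 21 as germinal vesicle (GV) oocytes, which gives 4 groups. The labels list 3 libraries per group, each of 10 pooled oocytes, made by Smart-seq2 from poly(A) RNA. The labels say neither how the Mtr4-null allele was made nor in which cells the gene was lost.

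The authors deposited FPKM, fragment counts adjusted for the length of the transcript and the depth of the library, as 1 mean per gene and group. Replicate errors, tests and the depth of the libraries are therefore missing throughout. The Mtr4-null day 21 mean may rest on fewer libraries than the labels list. Among the 2211 numbers in that column between 10 and 100 and written with 5 decimals, 92.3% have 5 as their last digit, as means of a pair would. In the other columns 55.4% to 57.4% of the values above 0 end in repeated 3s or in 6s and a 7, as means of 3 would, against 0.120% in that column. Skiv2l2, the older symbol of the gene for MTR4, had 27.6 FPKM at day 14 and 26.3 FPKM at day 21 in WT oocytes, against 1.57 and 3.86 FPKM without MTR4. All 10 oocyte markers were detected in every group, with a summed level of 13304 to 21674 FPKM. The 12 granulosa and cumulus markers summed to 25.5 to 38.5 FPKM. Cyp19a1 reached 25.3 FPKM (WT day 21), Inha 10.9 FPKM (Mtr4-null day 21) and Nr5a2 10.5 FPKM (Mtr4-null day 14). Ptx3 was listed at 0 in every group and Foxl2 at most at 0.320 FPKM. The 9 theca and stromal markers summed to 1.05 to 2.03 FPKM, and the 6 endothelial and blood markers to 2.19 to 20.9 FPKM, nearly all of it Pecam1. In these pooled oocytes, a loss of the RNA from every cell and a loss from some cells cannot be told apart.

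Growth factors bind receptor tyrosine kinases, which act through the small GTPase RAS on the kinases RAF, MEK and ERK. ERK activity induces Sprouty, Spred and Dusp6 transcripts in many cell types, and their products then damp the same pathway. Sprouty proteins act between the receptor and RAF, Spred proteins bring the RAS inactivator neurofibromin to the membrane, and DUSP6 removes the activating phosphates of ERK in the cytoplasm. Growing oocytes carry the receptor tyrosine kinase KIT, and the MOS kinase drives the MEK and ERK pathway in meiosis.

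Spry4 and Spry1 were the abundant members, and they lay in opposite order in the genotypes. Spry4 had 57.7 FPKM in WT day 14, 36.3 FPKM in Mtr4-null day 14, 118 FPKM in WT day 21 and 4.82 FPKM in Mtr4-null day 21. Its level was thus highest in WT GV oocytes and lowest in Mtr4-null GV oocytes, with the day 14 groups between them. On the log2(FPKM + 1) scale, used for all differences below, Mtr4-null minus WT was -0.65 at day 14 and -4.35 at day 21, the latter a 24.4-fold lower FPKM. Day 21 minus day 14 was 1.01 for the WT oocytes and -2.68 for the Mtr4-null ones. These differences share group means, so the WT day 21 mean enters both the day 21 and the WT age difference.

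Spry1 had 45.1 FPKM in WT day 14, 73.4 FPKM in Mtr4-null day 14, 34.5 FPKM in WT day 21 and 80.2 FPKM in Mtr4-null day 21. Both Mtr4-null means were above both WT means. The genotype difference was 0.69 at day 14 and 1.20 at day 21, and the age difference was -0.38 in WT and 0.13 in Mtr4-null oocytes. Spry2, a close relative and in many tissues a major Sprouty gene, was near the floor in WT. Its day 14 means were 0.454 FPKM (WT) and 0.718 FPKM (Mtr4-null), and its day 21 means 0.208 and 3.41 FPKM. Only the Mtr4-null day 21 mean exceeded 1 FPKM, and the genotype difference was 0.24 at day 14 and 1.87 at day 21. Spry3 was listed at 0 in all 4 groups.

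**Figure D1:**
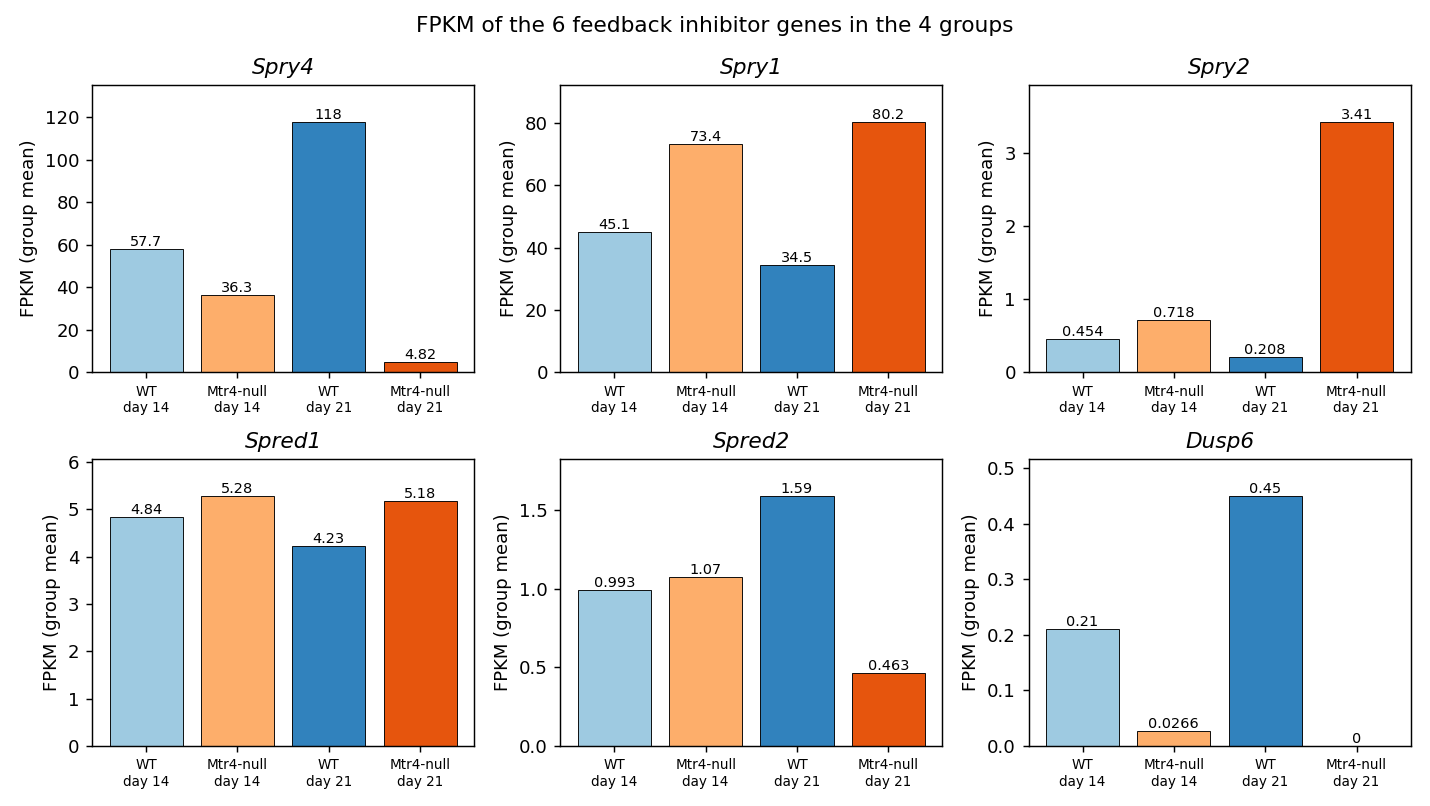
Mean FPKM (y axis, linear from 0, scaled per panel) of the 6 genes in WT and Mtr4-null oocytes at day 14 and day 21, as averaged by the authors, so no error bars can be drawn. Spry4 is highest in WT GV oocytes (118 FPKM) and lowest in Mtr4-null GV oocytes (4.82 FPKM), the group in which Spry1 and Spry2 are highest.

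Since FPKM are scaled to length, the Sprouty genes can be summed. Spry1, Spry2 and Spry4 together gave 103 FPKM (WT) and 110 FPKM (Mtr4-null) at day 14, and 152 and 88.5 FPKM at day 21. The sum differed less between groups than its make-up did. Spry4 made up 55.9% of it in WT and 32.9% in Mtr4-null oocytes at day 14. At day 21 it made up 77.2% in WT and 5.45% in Mtr4-null oocytes. Spry1 made up 22.7% of the sum in WT and 90.7% in Mtr4-null oocytes at day 21. The ratio of Spry4 to Spry1 FPKM was 1.28 in WT and 0.495 in Mtr4-null oocytes at day 14, and 3.41 and 0.0601 at day 21. This ratio is taken within a column and does not change with the scaling of that column as a whole.

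**Figure D2:**
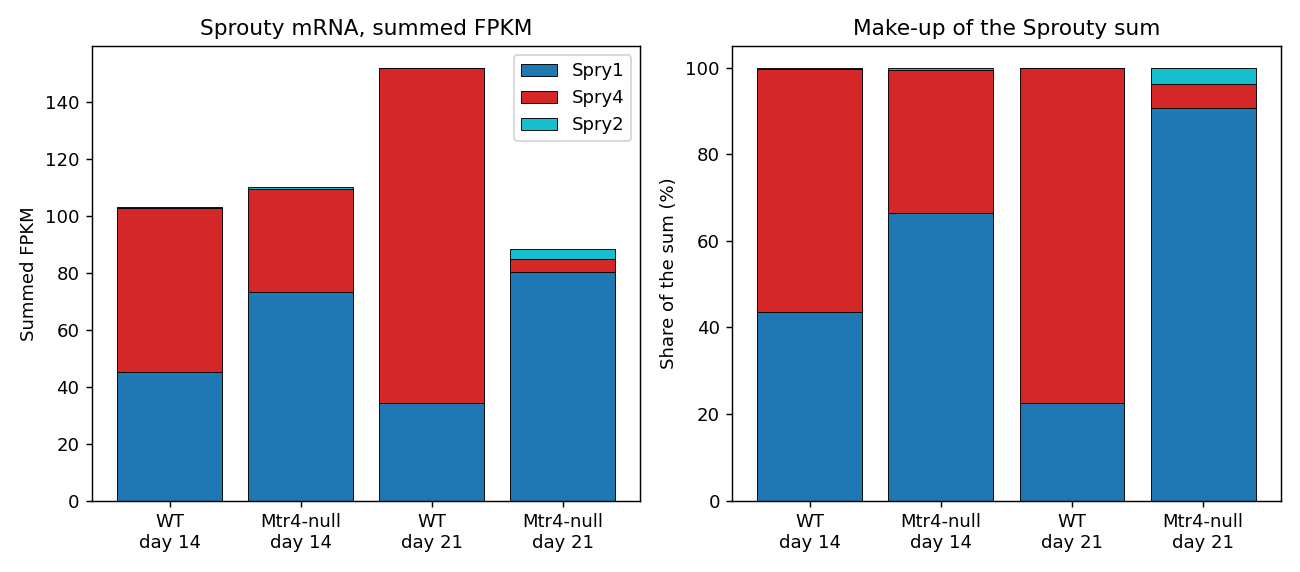
Summed FPKM of Spry1, Spry4 and Spry2 (left) and the share of each in that sum in percent (right) for the 4 group means. Spry4 takes 77.2% of the sum in WT GV oocytes and 5.45% in Mtr4-null GV oocytes, where Spry1 takes 90.7%.

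The Spred genes differed less. Spred1 stood at 4.84 and 5.28 FPKM in WT and Mtr4-null oocytes at day 14 and at 4.23 and 5.18 FPKM at day 21. Its 4 means lay within a narrow band, with genotype differences of 0.11 and 0.24; the former was -0.15 under quantile normalization. Spred2 stood at 0.993 and 1.07 FPKM at day 14 and at 1.59 and 0.463 FPKM at day 21 in WT and Mtr4-null oocytes. As for Spry4, its highest mean was WT day 21 and its lowest Mtr4-null day 21, but at a level near 1 FPKM, with genotype differences of 0.057 (-0.19 under quantile normalization) and -0.82. The latter was past 2-fold under quantile normalization, at -1.09, and with a pseudocount of 0.1, at -1.59. Spred3, a relative outside the 6, stood at 0.142 to 0.257 FPKM.

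Dusp6 was close to undetected. WT oocytes had 0.210 FPKM at day 14 and 0.450 FPKM at day 21, whereas Mtr4-null oocytes had 0.0266 FPKM at day 14 and were listed at 0 at day 21. Both WT means were above both Mtr4-null means, and the order of the groups was that of Spry4. The genotype differences, -0.24 and -0.54, cannot be read as folds, because the pseudocount of 1 exceeds the values.

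To set these sizes in context, genes that averaged 1 FPKM or more across the 4 groups were counted as higher or lower where they differed at least 2-fold on the log2 scale. This filter kept 11913 genes and 5 of the 6 members. Dusp6 did not pass, Spred2 passed with a mean of 1.03, and Spry2 passed through its Mtr4-null day 21 value. Dusp6 is included in the counts of members, none of which it changes here. At day 14 no member was higher or lower, against a background of 8.10% of genes higher and 1.55% lower. At day 21 Spry1 and Spry2 were higher and Spry4 was lower, where 20.2% of all genes were higher and 25.7% lower, and this contrast chose the members. With age in WT, Spry4 was higher, beside 2.02% of all genes higher and 3.32% lower. With age in Mtr4-null oocytes, Spry2 was higher and Spry4 lower, beside 9.08% higher and 18.6% lower. The WT age call of Spry4 lies at the edge of the 2-fold line and stood at 0.97 under quantile normalization and with a pseudocount of 5. Both calls of Spry2 rest on low FPKM and end with a pseudocount of 5, at 0.69 for day 21 and 0.56 for age in Mtr4-null oocytes, and with a pseudocount of 0.1 its day 21 difference was 3.51.

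The place of Spry4 among all genes moved more than its call shows. At day 14, 569 of the 11913 genes, or 4.78%, had a lower genotype difference than Spry4. At day 21, the contrast by which the members were chosen, only 19 genes, or 0.159%, had a lower one. Relative to the median of all genes, which was 0.052 at day 14 and -0.27 at day 21, Spry4 stood at -0.71 and -4.07. The 5 other members had a median genotype difference of 0.11 at day 14 and 0.24 at day 21. The day 21 genotype difference minus that of day 14 was -3.69 for Spry4, with 51 genes lower. It was 1.63 for Spry2 and 0.50 for Spry1, and it too contains the day 21 values known at the choice. Spry1 lay above 86.2% of genes at day 14 and above 82.2% at day 21. Its larger difference at day 21 came with a wider spread of all genes.

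**Figure D3:**
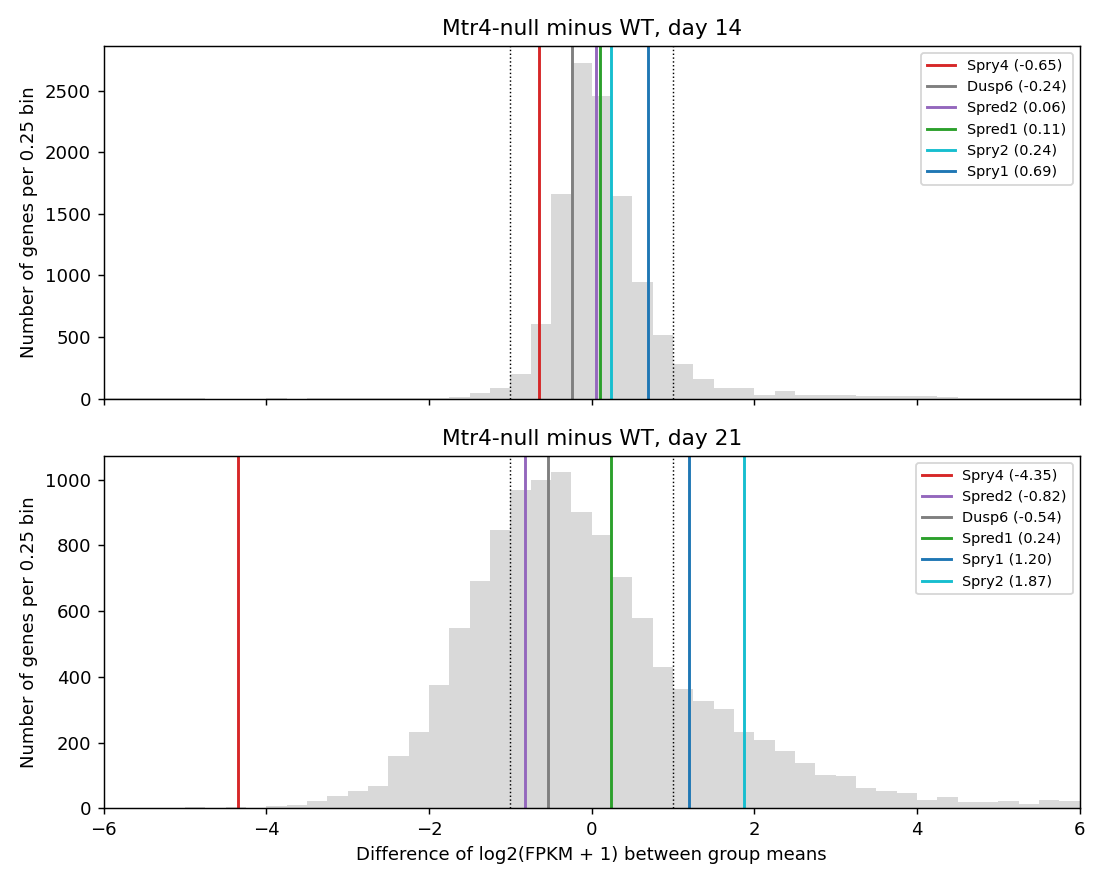
Number of genes (y axis) by the Mtr4-null minus WT difference of log2(FPKM + 1) (x axis, bins of 0.25) for the 11913 filtered genes at day 14 (top) and day 21 (bottom), with coloured lines at the 6 members, Dusp6 included, and dotted lines at a 2-fold difference. All members lie inside the dotted lines at day 14, and at day 21 Spry4 lies at -4.35, far to the left of most genes, with Spry1 and Spry2 to the right of the line.

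The genes differ in structure. In GENCODE vM21 the coding sequence of Spry1, Spry2 and Spry4 lies within 1 exon each and spans 939, 945 and 900 bases. Spred1 and Spred2 have 7 coding exons each and Dusp6 has 3. The single coding exon is thus shared by the lowest and the highest member of the day 21 contrast. Spry4 and Spry1 each overlap annotated genes on the opposite strand, Gm27369 and Gm27804 for Spry4 and Gm42922 for Spry1. The Smart-seq2 libraries keep no strand, so reads of such a pair cannot be told apart.

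The upstream sequences of Spry1 and Spry2 are shown because these are the members that were at least 2-fold higher in Mtr4-null oocytes at day 21. Each runs 5′ to 3′ on the gene's strand over the 250 bases before the RefSeq start (GRCm38.p6), and capitals mark a CCAAT box (CCAAT or ATTGG) and a GC box (GGGCGG or CCGCCC).
Spry1, chr3:37639697-37639946, plus strand: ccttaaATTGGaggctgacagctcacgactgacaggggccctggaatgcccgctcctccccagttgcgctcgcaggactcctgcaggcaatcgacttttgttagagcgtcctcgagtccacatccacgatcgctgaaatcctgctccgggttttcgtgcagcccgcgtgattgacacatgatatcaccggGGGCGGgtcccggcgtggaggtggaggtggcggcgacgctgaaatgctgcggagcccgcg
Spry2, chr14:105896820-105897069, minus strand: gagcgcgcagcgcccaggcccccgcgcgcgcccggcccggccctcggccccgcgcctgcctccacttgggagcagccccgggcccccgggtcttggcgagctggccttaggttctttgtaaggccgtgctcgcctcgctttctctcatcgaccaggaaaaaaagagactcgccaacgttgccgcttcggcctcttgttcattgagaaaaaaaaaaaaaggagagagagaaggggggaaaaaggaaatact

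The Spry1 window holds 1 CCAAT box and 1 GC box, and the Spry2 window holds neither. Of the members that were not higher, Spred1 holds 2 GC boxes, Spred2 1 GC box and Dusp6 1 CCAAT box. No window was matched by symbol for Spry4. Of 32851 RefSeq promoter windows of the same length, 33.8% hold CCAAT and 32.7% hold GGGCGG on either strand. Both windows are 62.4% G and C, against a median of 52.4% over all windows. An ETS core with flanks, CCGGAA, is in 12.0% of all windows and in none of the 5 members' windows matched by symbol (Spry1, Spry2, Spred1, Spred2, Dusp6). The Capicua octamers TGAATGAA and TGAATGGA are in 1.08% and 1.01% of all windows and in none of these 5. These are matches of letters within 250 bases and say nothing of binding elsewhere.

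The genes whose pattern was most like that of Spry4 were found by the distance over 3 differences (genotype at each age and age in WT) among 9428 other genes with at least 5 FPKM in some group. They were Fam25c, Umodl1, Cd177, BC017612 and Mt4, at distances of 0.60 to 0.83. Cd177 encodes a surface glycoprotein known from neutrophils and Mt4 a metallothionein. Cd177 stood at 57.4 and 36.5 FPKM in WT and Mtr4-null oocytes at day 14 and at 76.6 and 4.24 FPKM at day 21. Mt4 stood at 35.5 and 23.1 FPKM at day 14 and at 48.3 and 2.64 FPKM at day 21. The 3 differences fix the order of the 4 group means, so a likeness in that order follows from how the 5 were picked. In each of the 5, WT day 21 was the highest mean and Mtr4-null day 21 the lowest. Only Fam25c came near the age difference of Spry4 in WT, at 0.98. The 4 others had age differences of 0.41 to 0.57.

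**Figure D4:**
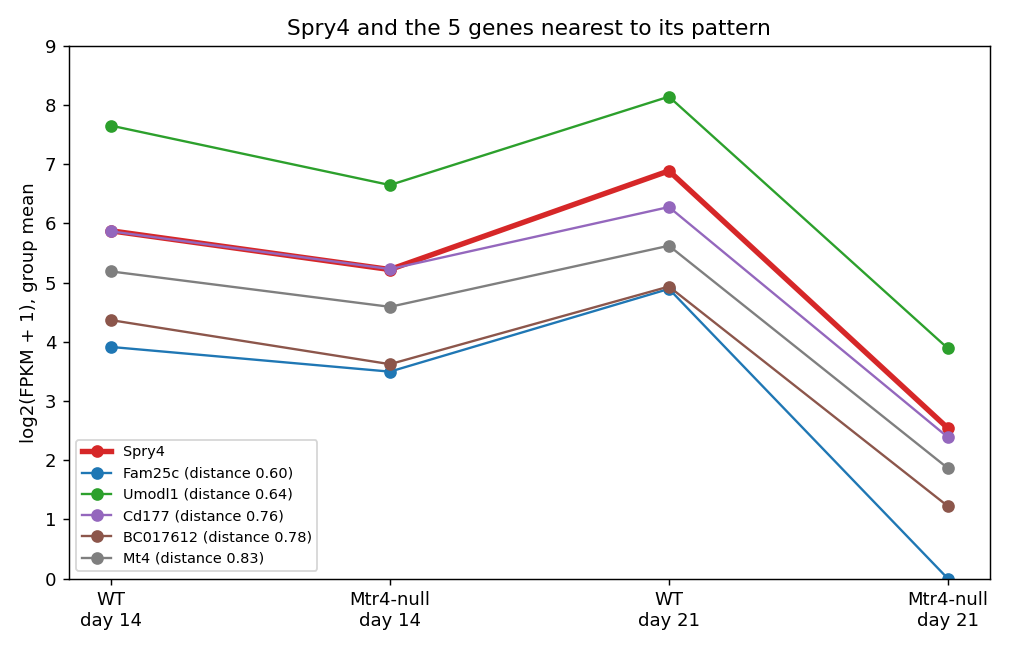
log2(FPKM + 1) of Spry4 (thick red line) and the 5 genes with the smallest distance to its pattern, in the 4 group means. All 6 lines peak at WT day 21 and have their lowest point at Mtr4-null day 21, where Fam25c is listed at 0. The 5 genes were picked for this likeness, so the shared peak and low point follow from the choice.

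For the other members the nearest genes lay at smaller distances. They were Sgca and Gsc for Spry1 (0.078 and 0.083), Mcts2 for Spry2 (0.10), and Zbtb7b and Ccna2 for Spred1 (0.030 and 0.041). For Spred2 they were Mtrf1 and Nasp (0.025 and 0.039), and for Dusp6 they were Mrps9 and Casp8ap2 (0.030 and 0.049). The nearest genes of Dusp6 stood at 16.2 to 24.6 FPKM, far above it, so this likeness rests on the pseudocount. The same limit holds in part for Spred2 and Spry2. The day 21 ratio of Mtr4-null to WT FPKM was 0.29 for Spred2, against 0.53 for Mtrf1 and 0.55 for Nasp. For Spry2 it was 16.4, against 5.20 for Mcts2.

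Markers of other cells include genes that lay in the same order of groups as Spry4 and genes that went the other way at day 21. Cyp19a1, the aromatase gene of granulosa cells, stood at 10.5 and 4.30 FPKM in WT and Mtr4-null oocytes at day 14 and at 25.3 and 1.48 FPKM at day 21. Pecam1, an endothelial adhesion molecule also known in germ cells, stood at 13.2 and 9.82 FPKM at day 14 and at 20.7 and 2.13 FPKM at day 21. The remaining 5 endothelial and blood markers were at 0.271 FPKM or below in every group. Of the granulosa list, 5 of 12 genes passed the filter, with 1 higher (Inha) and 1 lower (Cyp19a1) at day 21. Inha stood at 1.72 FPKM (WT) and 10.9 FPKM (Mtr4-null) at day 21. Short of 2-fold, Kitl was higher, and Fshr and Nr5a2 were lower. Below the filter, Gja1, Amhr2, Foxl2 and Amh were higher in Mtr4-null oocytes at day 21, and Inhba and Has2 were lower. Among all genes 20.2% were higher and 25.7% lower. Kdr and Kitl stand in a marker list and in a list of pathway genes below. The part of other cell types in the Spry4 difference was not tested.

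The pathway the members restrain was described from lists drawn up with earlier results of these data known. Over all filtered genes 20.2% were higher and 25.7% lower at day 21, the shares to be set beside the counts of each list. Of 27 receptor tyrosine kinases 11 passed the filter, and at day 21 Egfr, Fgfr2, Epha4, Tek and Kit were lower and Tyro3 was higher. The median of the 11 was -0.72, against -0.27 for all genes. Tyro3 stood at 0.879 and 0.477 FPKM in WT oocytes at day 14 and day 21 and passed the filter through its Mtr4-null values. Its call lay at the edge of the 2-fold line, and no receptor was higher under quantile normalization. Egfr, the receptor of EGF-like factors, stood at 7.37 FPKM in WT oocytes at day 14, with a genotype difference of -0.74, and at 20.6 FPKM (WT) and 2.23 FPKM (Mtr4-null) at day 21. Fgfr2, a receptor of fibroblast growth factors, stood at 6.11 and 5.25 FPKM at day 14 and at 13.8 and 2.47 FPKM at day 21. Both were, like Spry4, at least 2-fold higher with age in WT, by 1.37 and 1.05, beside the same 2.02% of all genes. Egfr and Fgfr2 were named for their day 21 genotype differences, which share the WT day 21 mean with these age differences. A high WT day 21 mean favours both, so that share of all genes is not a like background. Epha4, an ephrin receptor, had genotype differences of -0.79 and -1.52. Kit, the most abundant receptor, stood at 85.2 and 29.7 FPKM at day 21 and at 90.8 and 88.1 FPKM at day 14.

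Of 23 ligands 13 passed, with Pdgfa and Tgfa higher, Fgf8, Nrg1 and Fgf10 lower, and a median of -0.67 at day 21. Fgf8, which oocytes secrete towards cumulus cells, stood at 136 and 130 FPKM in WT and Mtr4-null oocytes at day 14 and at 124 and 22.2 FPKM at day 21. Nrg1 had a day 21 difference of -2.20 and Pdgfa, a platelet-derived growth factor chain, of 1.32. Fgf10 passed the filter only through its WT day 21 mean of 3.07 FPKM. Of 14 adaptors and exchange factors 9 passed, with Gab2, Ptpn11 and Crk lower and Frs2 and Sos2 higher. Ptpn11, the SHP2 phosphatase that relays receptor signals to RAS, stood at 15.2 and 3.98 FPKM at day 21. Frs2, the docking protein of FGF receptors, stood at 1.42 and 6.23 FPKM. The adaptors' median was 0.15.

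Of 22 genes of the RAS, RAF, MEK and ERK core 18 passed, and at day 21 none was higher and 5 were lower, among them Rras2, Mapk3, Map2k2 and Hras1. These 5 of 18 are near the 25.7% of all genes that were lower, while 20.2% of all genes were higher. Mapk3, which encodes ERK1, stood at 199 and 214 FPKM in WT and Mtr4-null oocytes at day 14 and at 244 and 57.3 FPKM at day 21. Map2k2, which encodes MEK2, stood at 24.2 and 7.41 FPKM at day 21, and Rras2, a RAS relative, at 58.9 and 11.6 FPKM. Mos, by far the most abundant, stood at 535 and 607 FPKM. The core's median was -0.23, near that of all genes, and 0.014 under median-of-ratios scaling, where 4 genes were lower.

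The lists of other MAP kinase phosphatases and of other inhibitors of receptors and RAS held genes on both sides, as the members did. The phosphatases were not separated by the MAP kinase each acts on, so not all of them need restrain ERK. Of 9 other MAP kinase phosphatases 7 passed, with Dusp8, Dusp2 and Dusp5 higher and Dusp10 lower at day 21 and a median of 0.37. With a minimum mean of 5 FPKM, 5 passed, with 1 higher and 1 lower at day 21. Their median was then -0.80, against -0.41 for all genes. Dusp2, a nuclear ERK phosphatase, stood at 20.2 and 47.5 FPKM in WT and Mtr4-null oocytes at day 14 and at 5.59 and 36.8 FPKM at day 21. Dusp8 stood at 0.198 and 8.62 FPKM at day 21, and Dusp5 at 0.336 and 2.73 FPKM. Dusp8 and Dusp5 passed the filter only through their Mtr4-null values. Dusp10 stood at 26.9 and 6.90 FPKM. Dusp7, a cytoplasmic ERK phosphatase of the same subgroup as Dusp6, was the most abundant of the list, at 79.1 and 63.7 FPKM at day 14 and at 105 and 60.1 FPKM at day 21. Its lowest group mean was far above the highest of Dusp6. Of 20 other inhibitors of receptors and RAS 15 passed, with Socs2 higher and Rasa2, Lrig1 and Sh2b3 lower. Rasa2, a RAS inactivator, stood at 52.2 and 12.6 FPKM at day 21, Lrig1, which promotes receptor degradation, at 25.7 and 9.97 FPKM, and Socs2 at 1.36 and 11.8 FPKM. Pebp1, an inhibitor of RAF kinase, stood at 286 and 165 FPKM. The median of these 15 was -0.20, and 0.086 under median-of-ratios scaling, where 1 was higher and 1 lower.

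Of 18 genes known as ERK-responsive in other cells 7 passed, and they divided into Ier2 and Junb higher and Etv1 and Egr1 lower at day 21, with a median of 0.063 (-0.15 under quantile normalization). Etv1, an ETS transcription factor gene, stood at 5.71 and 1.36 FPKM in WT and Mtr4-null oocytes at day 14 and at 15.3 and 1.34 FPKM at day 21. It was, like Spry4, higher with age in WT, by 1.28. This age difference shares the WT day 21 mean with the day 21 contrast by which Etv1 was named. Ier2, an immediate early gene, stood at 3.15 and 13.5 FPKM at day 14 and at 1.56 and 12.6 FPKM at day 21, and Junb at 0.913 and 9.07 FPKM at day 21. Junb had 1.02 FPKM in WT oocytes at day 14, so it too passed the filter through its Mtr4-null values. At day 14 the pathway lists held 4 differences of at least 2-fold, in Etv1 (lower) and in Dusp2, Dusp8 and Ier2 (higher). Of all genes, 8.10% were higher and 1.55% lower at that age. Tek, Tyro3, Tgfa, Fgf10, Sos2, Hras1, Dusp5, Sh2b3, Egr1 and the single markers of other cells were named after their values were seen.

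**Figure D5:**
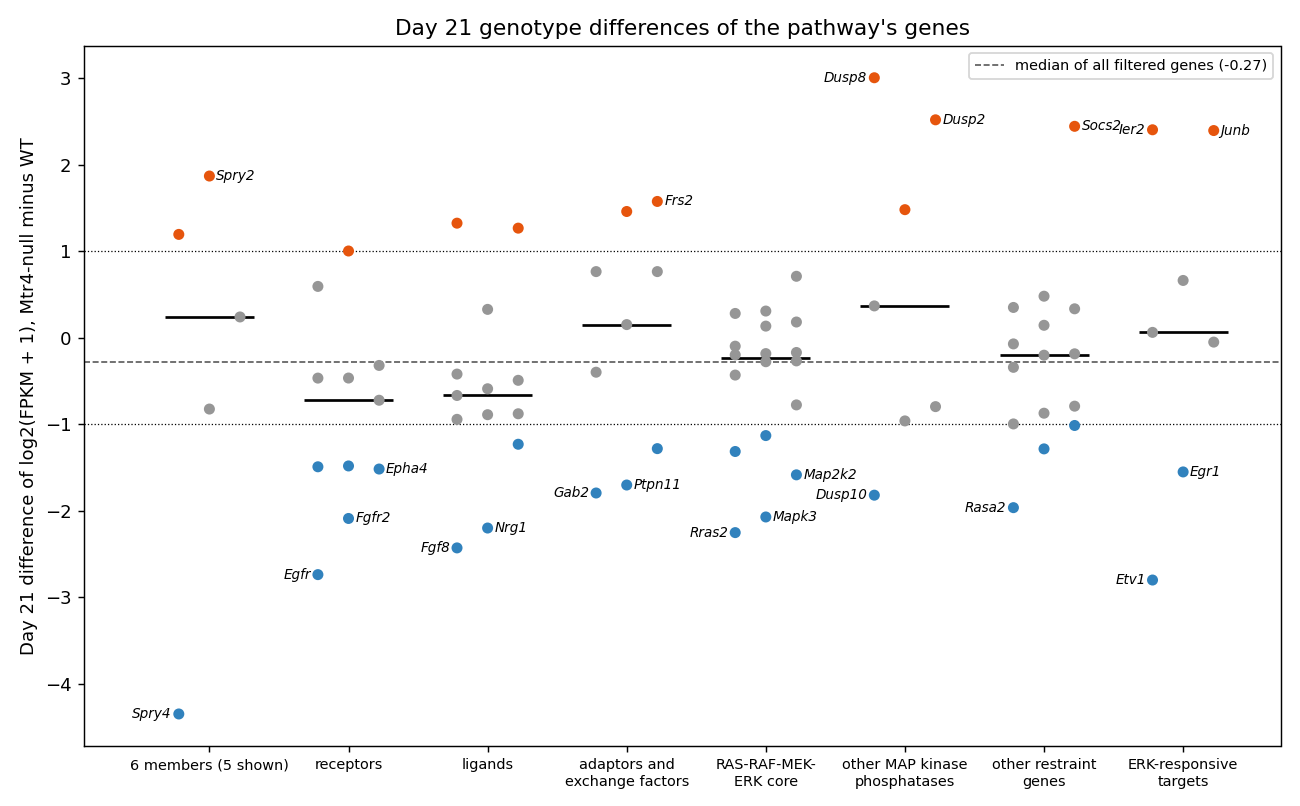
Mtr4-null minus WT difference of log2(FPKM + 1) at day 21 (y axis) for each filtered gene of the members and of 7 pathway lists, with blue and orange points past a 2-fold difference (dotted lines), black bars at list medians and a dashed line at the median of all genes, -0.27. Spry4 at -4.35 lies below every other point drawn. The lists of other MAP kinase phosphatases and other restraint genes, like the members, have points on both sides.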

How the data were processed

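Poly(A) RNA of mouse oocytes was measured in 12 libraries by label, 3 for each of 4 groups. The submitters' processing notes name build mm9, Cufflinks 2.2.1 and TopHat2 2.1.1 without saying what each was used for. The authors deposited FPKM as 1 mean per gene and group, with no values per library, and other authors' steps are not given in the sources used here. FPKM are relative to each library's RNA, so a change in RNA content per oocyte would not show.

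From these, differences of log2(FPKM + 1) between group means were computed (Python 3.11.15, pandas 2.3.3, numpy 2.4.6), and genes averaging 1 FPKM or more were counted past 2-fold, a rule of size and not a test. The code was tested on simulated data. The limma fit planned for values per library could not be run. The members and lists were chosen with earlier results of these data known. Named genes are the members, in each list up to 3 genes with the largest 2-fold differences at each age (at least 5 FPKM in the higher group) and the most abundant one, and the genes nearest to each member. Some genes that the rule or lists hold are not reported here. Alternatives were pseudocounts of 0.1 and 5, no filter, a minimum mean of 5 FPKM, median-of-ratios scaling over 11707 genes and quantile normalization. Of 48 members and other genes named by rule, 47 were found in GENCODE vM21. Of these, 22 lie across another annotated gene (19 across one of the other strand), so their values are uncertain. Beside Spry4 and Spry1 they include Egfr, Fgfr2, Epha4, Nrg1, Pdgfa, Ptpn11, Rras2, Rasa2, Lrig1, Dusp8, Dusp10 and Junb. Sequences are from RefSeq, GRCm38.p6; no coordinates were taken for the authors' build.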

Additional observations from a re-analysis of the deposited data

How the results depend on the processing

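No member's difference past 2-fold changed its sign under any of the 6 alternatives. The day 21 genotype difference of Spry4 was -4.58 and -3.64 with pseudocounts of 0.1 and 5, -4.07 under median-of-ratios scaling and -4.26 under quantile normalization. The median of the other 5 members was 0.29, 0.14, 0.51 and 0.17 in the same order. Counted over all 6 members, Dusp6 included although it did not pass the filter, 1 member (Dusp6) was lower at day 14 with a pseudocount of 0.1, 3 (Spry4, Spred2 and Dusp6) at day 21 and 2 (Spry4 and Spred2) with age in Mtr4-null oocytes. Over the 5 that passed, 0 were lower at day 14 and 2 at day 21. Of all 11913 filtered genes, 334 were lower at day 14 with this pseudocount, 3553 at day 21 and 2875 with age in Mtr4-null oocytes. With a pseudocount of 5, 1 member (Spry1) was higher at day 21, 0 with age in WT (Spry4 no longer) and 0 with age in Mtr4-null oocytes (Spry2 no longer). Of all filtered genes, 1498, 69 and 673 were higher in the same order. Quantile normalization gave 2 members (Spry4 and Spred2) lower at day 21 and 0 higher with age in WT. Of all filtered genes, it gave 3053 lower at day 21 and 233 higher with age in WT. Over all genes, median-of-ratios scaling moved the day 21 median by 0.27 and the counts from 2410 higher and 3067 lower to 2898 and 2165. For age in Mtr4-null oocytes it moved the median by 0.35 and the counts from 1082 and 2216 to 1815 and 1048, and quantile normalization gave 1483 and 1595. At day 14 quantile normalization moved the median by -0.15 and the counts from 965 and 185 to 708 and 321. The cause of these moves was not tested. Leaving out single libraries was not run, because the table holds group means. No paired analysis was possible because the columns carry no replicate numbers. With no counts or depth, values under about 1 FPKM (Spry2 in WT, Dusp6) cannot be given an error.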

Other observations

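Neighbours here are the nearest protein-coding genes in RefSeq order that had FPKM values. Genes without values were passed over, so a gene called next need not be adjacent. The neighbours did not all lie on the member's side of 0 at day 21. Beside Spry4, Ndfip1, an adaptor of NEDD4-type ubiquitin ligases, had 175 FPKM (WT) and 112 FPKM (Mtr4-null), a difference of -0.63. Arhgap26 on the other side stood at 5.67 and 1.27 FPKM, a difference of -1.56. Fgf1, beyond Arhgap26, had a difference of -0.49. Gnpda1, the next gene beyond Ndfip1, stood at 1.01 and 8.26 FPKM, a difference of 2.21. Beside Spry2, Ndfip2 stood at 47.7 and 30.5 FPKM and Trim52 at 0.105 and 12.2 FPKM. Beside Spry1, Spata5 stood at 50.0 and 28.8 FPKM, and Nudt6 beyond it at 4.26 and 14.8 FPKM. Beyond the gene next to Spred1, Meis2, a homeobox gene, stood at 201 and 40.3 FPKM. These genes were looked up after the members' values were seen, and their order is that of GRCm38.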
